A study of Mus musculus with 23 samples.

Results

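The 10 genes *Nqo1*, *Cbr1*, *Cbr3*, *Akr1a1*, *Ptgr1*, *Ephx1*, *Esd*, *Ugdh*, *Abcc1* and *Abcc4* encode enzymes that reduce or hydrolyse quinones, carbonyls, enones, epoxides and formaldehyde adducts, an enzyme that supplies glucuronic acid, and a pair of pumps that export conjugates. They are 10 of the 56941 genes in the count files. They were taken by Ensembl identifier from a list that had been chosen with CRE and RFP values of these libraries in view, so their CRE and RFP values are given as a description, without a test. The libraries hold RNA of hippocampal neurons cultured from newborn (P0) mice homozygous for Nedd8cKO. The neurons were infected at day 1 in vitro with a lentivirus that expressed either RFP (RFP libraries) or CRE-recombinase tagged with RFP (CRE libraries) from the Synapsin1 promoter, and RNA was taken after 12 days in culture by the labels. The study's methods and figure legend give a later day for the RNA. Both groups carried the floxed *Nedd8* alleles, and the 11 RFP and 12 CRE libraries came from 3 numbered sets of up to 4 libraries, which are called cultures 1 to 3 here because the labels give the numbers without saying what they count. Values are counts scaled to a total of 1000000 per library (CPM) in the 21 libraries that the study's count table holds, 11 CRE and 10 RFP, unless all 23 are named. CRE 3-3, the third library of culture 3, and RFP 3-2 are the ones left out of that table. The study's methods instead name CRE 1-3 and CRE 3-3 as removed, so CRE 1-3 is kept here although the authors set it aside, and values without it are given beside those that it moves. The 3 cultures may be the biological replicates behind these libraries, in which case p-values over libraries are too small, and the lists of other genes were also tested on counts summed per culture and group.

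Quinones, aldehydes, ketones and epoxides arise from metabolism, lipid peroxidation and drugs, and they react with proteins and DNA. Phase II enzymes reduce them, open them with water or couple them to glucuronic acid or glutathione, and ABC transporters of the ABCC family then carry the conjugates out of the cell. Several of these genes are textbook targets of the transcription factor NRF2, which the neddylated CUL3-KEAP1 ubiquitin ligase marks for destruction. *Nqo1* is also a textbook target of the aryl hydrocarbon receptor.

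Stretches upstream of *Nqo1*, *Cbr3* and *Cbr1* are shown because the first pair had large differences between CRE and RFP libraries and *Cbr1*, a close relative beside *Cbr3*, did not. They come from GRCm39, on the strand of the gene and 5′ to 3′, and none of them overlaps an annotated exon. They run from 390 to 100 bases before the start of the main transcript for *Nqo1* and *Cbr3*, and from 230 to 1 bases before it for *Cbr1*. The windows differ in place and length, so what they hold is not compared between the genes. Capitals mark TGANTCNGC, an antioxidant response element core in its AP-1-like form, and GCGTG, the core of the element bound by the aryl hydrocarbon receptor, on either strand.
Nqo1, chr8:108130034-108130324, minus strand: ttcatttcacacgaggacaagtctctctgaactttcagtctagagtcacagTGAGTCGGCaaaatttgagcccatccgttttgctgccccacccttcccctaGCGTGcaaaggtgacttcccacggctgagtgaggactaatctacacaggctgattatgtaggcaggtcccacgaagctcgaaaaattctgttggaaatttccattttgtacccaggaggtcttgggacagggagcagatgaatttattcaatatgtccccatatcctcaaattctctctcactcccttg
Cbr3, chr16:93479336-93479626, plus strand: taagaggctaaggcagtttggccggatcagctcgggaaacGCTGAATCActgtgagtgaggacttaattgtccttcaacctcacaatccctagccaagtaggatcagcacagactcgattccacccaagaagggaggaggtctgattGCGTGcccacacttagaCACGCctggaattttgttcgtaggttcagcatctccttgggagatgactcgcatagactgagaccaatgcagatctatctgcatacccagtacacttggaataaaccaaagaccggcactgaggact
Cbr1, chr16:93404475-93404704, plus strand: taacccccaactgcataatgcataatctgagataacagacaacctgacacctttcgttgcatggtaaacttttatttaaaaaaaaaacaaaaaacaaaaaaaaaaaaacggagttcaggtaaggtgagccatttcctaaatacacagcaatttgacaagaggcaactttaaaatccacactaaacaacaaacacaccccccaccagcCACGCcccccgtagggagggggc

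The 2000 bases before the start of the main transcript were searched on both strands in 21757 protein-coding genes. TGANTCNGC was present upstream of 2 of the 10 genes, *Nqo1* and *Cbr3*, and of 16% of all genes. The match began 339 bases before the start of *Nqo1* and 350 bases before that of *Cbr3*. The second form searched, TGACNNNGC, was present upstream of 5 of the 10 genes (*Abcc1*, *Cbr1*, *Ephx1*, *Nqo1* and *Ugdh*) and of 46.3% of all genes. The matches nearest to the start are shown with 10 bases on each side. That of *Cbr1*, 262 bases before the start, lies within an exon of another *Cbr1* transcript and outside the window shown above. *Ptgr1*, *Abcc4*, *Esd* and *Akr1a1* held neither TGANTCNGC nor TGACNNNGC. Whether either form goes with the differences between CRE and RFP libraries was not tested.
Cbr1, 262 bases before the start: gtcagtcattTGACCTGGCcggttttttt
Ephx1, 616 bases before the start: acagtggtgtGCCTGGTCAtcttgtctgt
Ugdh, 730 bases before the start: aagtacatgaTGACGTGGCagaacaaatg
Nqo1, 1446 bases before the start: agacgaagctGCCTGGTCAcacagcatcc
Abcc1, 1672 bases before the start: acccagctaaGCTTTGTCAccagaactgc

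GCGTG was present upstream of 9 of the 10 genes, all but *Ptgr1*, and of 68.7% of all genes. Within the last 300 bases before the start, TGACNNNGC was present in 1 of the 10 genes (*Cbr1*) and in 11.2% of all genes, TGANTCNGC in 0 of the 10 and in 3.0%, and GCGTG in 6 of the 10 and in 34%. These counts describe letters in a window and say nothing of binding.

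*Nedd8*, the gene deleted by CRE, was lower in every CRE library than in any RFP library. It ranged from 44.1 to 76 CPM (median 62.4, n = 10) in RFP libraries and from 5.92 to 18 CPM (median 12.1, n = 11) in CRE libraries, a log2 difference of -2.44 ± 0.17 (SE). The totals ran from 7430401 to 13345552 counts in the 11 CRE and from 9833872 to 17112815 in the 10 RFP libraries. CRE 1-3, CRE 3-3 and RFP 2-4 stood apart from the rest. In these 3 libraries the level of a gene relative to other libraries followed its GC content, with Spearman correlations across genes of 0.504 to 0.74 against -0.14 to 0.277 in the other 20, and mitochondrial genes took 0.261% to 3.43% of the counts against 7.0% to 11.1%. CRE 1-3 and RFP 2-4 are among the 21 libraries, so values without them are given where they differ.

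Across the 10 genes, 7 had a log2 difference above 1 between CRE and RFP libraries (*Nqo1*, *Ptgr1*, *Cbr3*, *Abcc4*, *Esd*, *Ephx1* and *Abcc1*), as had 7.97% of the 14488 genes tested, and *Cbr1*, *Akr1a1* and *Ugdh* lay between -0.06 and 0.24. Nothing is read from the count of members, because the list was chosen on this contrast. By edgeR's quasi-likelihood test 16.4% of all genes were past an adjusted p of 0.05 toward higher and 13.8% toward lower levels in CRE libraries. Every CRE library was above every RFP library in 6 of the 10 genes and in 2.64% of the 14488. The median log2 difference was 1.97 over the 10 genes and 0.02 over all genes tested.

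**Figure D1:**
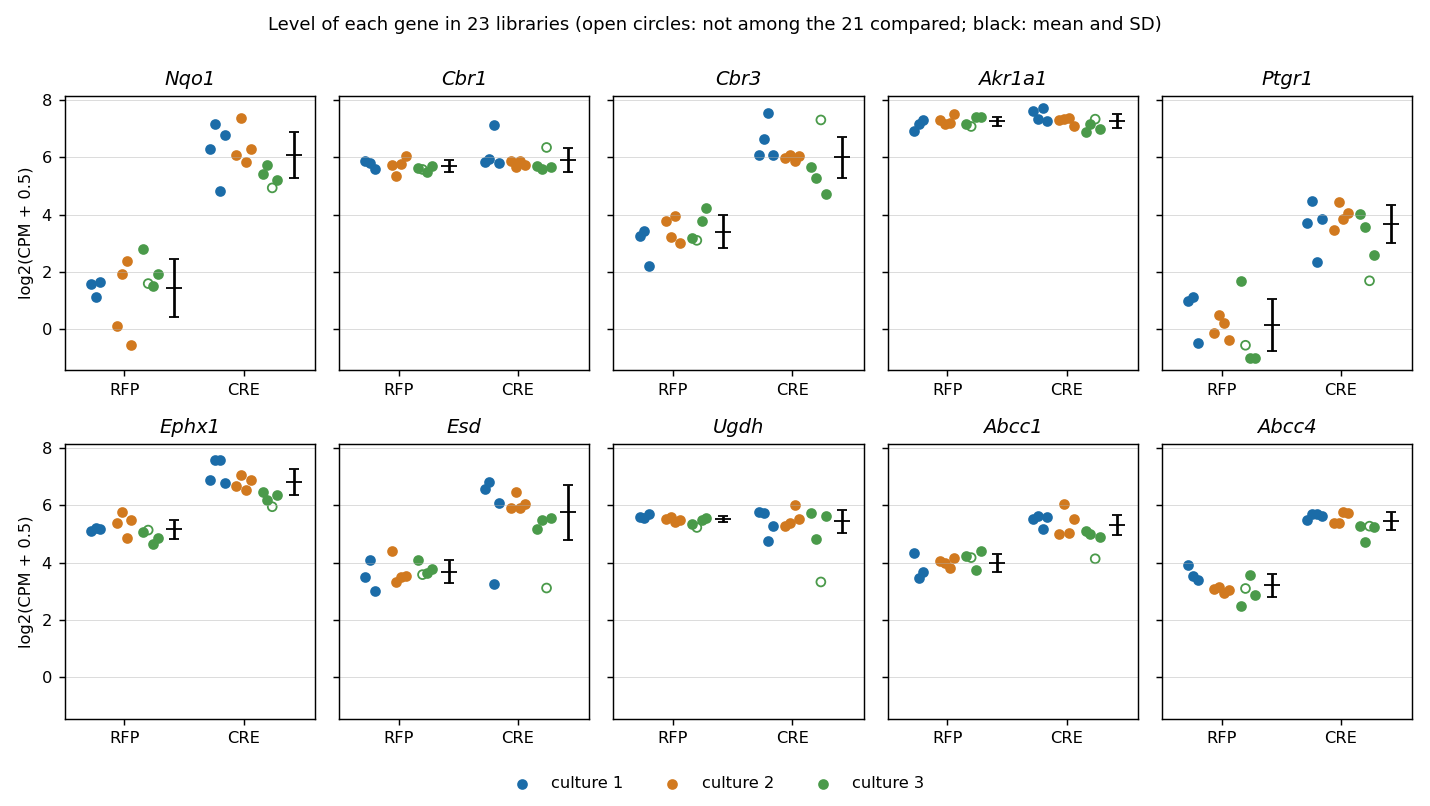
Levels of the 10 genes as log2(CPM + 0.5) in RFP and CRE libraries, with 1 point for each of the 23 libraries, coloured by culture. Open circles are CRE 3-3 and RFP 3-2, and black marks are the mean and SD over the 21 libraries compared. *Nqo1*, *Cbr3*, *Ptgr1*, *Ephx1*, *Abcc1* and *Abcc4* show no overlap between the 11 CRE and 10 RFP libraries, *Esd* overlaps through CRE 1-3, and *Cbr1*, *Akr1a1* and *Ugdh* overlap.

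*Nqo1* (chromosome 8, 108113835 to 108129934, minus strand, GRCm39) encodes NAD(P)H quinone dehydrogenase 1, which reduces quinones by a pair of electrons and so bypasses the reactive semiquinone. It was scarce in RFP libraries, from 0.182 to 6.5 CPM (median 2.56, n = 10), which corresponds to 2 to 79 counts. In CRE libraries it ranged from 27.9 to 165 CPM (median 66.3, n = 11). The lowest CRE library was therefore above the highest RFP library, and the lowest CRE value was that of CRE 1-3. The log2 difference was 4.79 ± 0.41 (SE), a 27.6-fold difference, and 18 in rank among the 14488 genes tested when ordered from the highest. CRE 3-3, outside the comparison, held 30.0 CPM and RFP 3-2 held 2.52 CPM, each within the range of its group.

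The carbonyl reductases differed from each other. *Cbr1* and *Cbr3* encode related short-chain reductases that turn ketones and quinones into alcohols, and *Akr1a1* encodes aldehyde reductase, an aldo-keto reductase. *Cbr3* ranged from 4.12 to 18.2 CPM (median 9.68, n = 10) in RFP libraries and from 25.8 to 185 CPM (median 65.4, n = 11) in CRE libraries, with no overlap, and its log2 difference was 2.70 ± 0.28 (SE). The highest value was that of CRE 1-3, and the log2 difference was 2.41 in the 19 libraries without CRE 1-3 and RFP 2-4.

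*Cbr1* overlapped between groups. It ranged from 39.7 to 64.8 CPM (median 52.3) in RFP libraries and from 47.5 to 138 CPM (median 55) in CRE libraries, with CRE 1-3 the only CRE library above every RFP library. Its log2 difference was 0.24 ± 0.16 (SE), and 0.09 in the 19 libraries.

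*Cbr1* and *Cbr3* lie on the same strand of chromosome 16, 72332 bases apart, at 93402741 to 93407393 and at 93479726 to 93487879 (GRCm39). Their coding sequences were identical at 77.1% of 831 aligned bases. Of the 50-base stretches of the longest transcript, 1.2% of those of *Cbr1* and 0.1% of those of *Cbr3* were also found in another gene, so that few reads could be shared. The ratio of *Cbr3* to *Cbr1* counts within a library ran from 0.0862 to 0.352 (median 0.204) in RFP libraries and from 0.514 to 1.61 (median 1.18) in CRE libraries. This ratio, which is not corrected for length, did not overlap between the groups either.

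*Akr1a1* (chromosome 4, 116493703 to 116516804, minus strand) overlapped between the groups. It ranged from 121 to 182 CPM (median 150.0) in RFP and from 118 to 208 CPM (median 156) in CRE libraries, a log2 difference of 0.02 ± 0.1 (SE). Its differences within cultures 1 and 3 had opposite signs, which are described with the cultures.

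*Ptgr1* (chromosome 4, 58965203 to 58987131, minus strand) encodes prostaglandin reductase 1, which reduces the double bond of enones such as lipid aldehydes and oxidised leukotriene B4. In RFP libraries it ranged from 0.0 to 2.68 CPM (median 0.536), with no count in RFP 3-3 and RFP 3-4, and in CRE libraries from 4.63 to 21.9 CPM (median 14). All 11 CRE libraries were above all 10 RFP libraries. The log2 difference was 4.00 ± 0.5 (SE), 37 in rank from the highest, and the low counts in RFP libraries limit how well the fold is known. CRE 3-3 held 2.73 CPM, just above the highest RFP library.

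*Ephx1* (chromosome 1, 180803775 to 180848537, minus strand), microsomal epoxide hydrolase, opens epoxides with water. It ranged from 24.8 to 54.5 CPM (median 34.9) in RFP and from 72.6 to 192 CPM (median 109) in CRE libraries, with no overlap and a log2 difference of 1.68 ± 0.18 (SE). *Ephx1* shares 72 exonic bases with *Tmem63a* on the opposite strand and with the predicted gene *Gm36961* on its own strand. *Tmem63a* averaged 1.18 CPM in RFP and 3.36 CPM in CRE libraries. The strand setting of the counting is not given in the sources used here.

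*Esd* (chromosome 14, 74969722 to 74989991, plus strand) encodes S-formylglutathione hydrolase, the last step by which formaldehyde bound to glutathione leaves as formate. It ranged from 7.67 to 20.7 CPM (median 11.4) in RFP libraries and from 8.99 to 112 CPM (median 60.2) in CRE libraries. The groups overlapped through CRE 1-3 alone, whose 8.99 CPM lay below the RFP median, while the other 10 CRE libraries were above every RFP library, the lowest at 35.7 CPM. CRE 3-3, which also followed GC content, held 8.18 CPM. The log2 difference was 2.25 ± 0.28 (SE) and was 2.35 in the 19 libraries. *Esd* had the largest share of 50-base stretches found in other genes, 8.4%.

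*Ugdh* (chromosome 5, 65570551 to 65593805, minus strand) encodes UDP-glucose dehydrogenase, which makes the UDP-glucuronic acid that glucuronidation and hyaluronan synthesis use. It ranged from 40.0 to 50.9 CPM (median 46.3) in RFP and from 26.3 to 64.4 CPM (median 45.9) in CRE libraries, a log2 difference of -0.06 ± 0.13 (SE). The centres of the groups were close, but the CRE libraries were spread more widely, with 4 of 11 above every RFP library and 4 of 11 below every RFP library, and the SD was 11.5 CPM in CRE and 3.15 CPM in RFP libraries. CRE 3-3 was lower still, at 9.55 CPM. Whether the spreads differed was not tested. *Ugdh* shares 158 exonic bases with the predicted gene *Gm43552* on its own strand.

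Both exporters were higher in every CRE library than in any RFP library. *Abcc1* (chromosome 16, 14179311 to 14293601, plus strand), the multidrug resistance protein that carries glutathione and glucuronide conjugates, ranged from 10.5 to 20.8 CPM (median 15.7) in RFP and from 29.3 to 65.4 CPM (median 35.8) in CRE libraries, a log2 difference of 1.36 ± 0.16 (SE). CRE 3-3, which was not compared, held 17.1 CPM of *Abcc1*, within the RFP range. *Abcc4* (chromosome 14, 118720103 to 118943924, minus strand), which exports cyclic nucleotides, prostaglandins and conjugates, ranged from 5.16 to 14.7 CPM (median 8.17) in RFP and from 25.7 to 53.9 CPM (median 44.8) in CRE libraries, a log2 difference of 2.26 ± 0.17 (SE). CRE 3-3 held 38.2 CPM of *Abcc4*, within the CRE range. *Abcc1* and *Abcc4* share 511 and 186 exonic bases with predicted genes on the opposite strand.

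CRE 1-3 split the members. It held the lowest CRE value of *Nqo1*, *Ptgr1*, *Esd* and *Ugdh*, and the highest CRE value of *Cbr1*, *Cbr3*, *Ephx1* and *Akr1a1*, and neither extreme of *Abcc1* or *Abcc4*. The exonic GC content of the first group was 42.9% to 48.8% (*Ugdh*, *Esd*, *Nqo1*, *Ptgr1*) and that of the second was 47.4% to 56.1% (*Akr1a1*, *Cbr1*, *Ephx1*, *Cbr3*). *Abcc1* (51.6%) and *Abcc4* (50.8%) lay within the range of the second group, so the split did not follow GC content in all 10 genes. In the 21 libraries without CRE 1-3 and CRE 3-3 the log2 differences were 4.9 for *Nqo1*, 2.5 for *Cbr3*, 2.4 for *Esd* and 0.08 for *Cbr1*. With each library's trend in GC content removed, the log2 differences were 4.79 for *Nqo1*, 3.97 for *Ptgr1*, 2.53 for *Cbr3*, 2.23 for *Esd*, 2.2 for *Abcc4*, 1.62 for *Ephx1*, 1.3 for *Abcc1*, 0.17 for *Cbr1*, 0.02 for *Akr1a1* and 0.01 for *Ugdh*. Each of these lay within 1 SE of the value without that step.

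The question whether the differences were of one size in the 3 cultures was addressed by fits within each culture and by a treatment by culture term. Culture 3 had the smallest log2 difference for *Nqo1* (5.29, 5.26 and 3.43 in cultures 1, 2 and 3), *Cbr3* (3.73, 2.45 and 1.51), *Esd* (2.59, 2.34 and 1.6) and *Abcc1* (1.65, 1.44 and 0.86). For *Nqo1*, the 3 CRE libraries of culture 3 held 36 to 52.7 CPM against 27.9 to 144 in culture 1 and 56.2 to 165 in culture 2. *Ptgr1* (3.56, 4.7 and 3.63), *Abcc4* (2.04, 2.53 and 2.1) and *Ephx1* (2.09, 1.36 and 1.48) had another order. All 7 of these genes were higher in CRE in every culture. *Nedd8* itself had log2 differences of -2.41, -2.74 and -2.13 in cultures 1, 2 and 3. Its CRE libraries held 5.92 to 13 CPM in culture 1, 6.95 to 12.2 in culture 2 and 12.7 to 18 in culture 3. Whether the members' differences follow those of *Nedd8* was not tested.

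**Figure D2:**
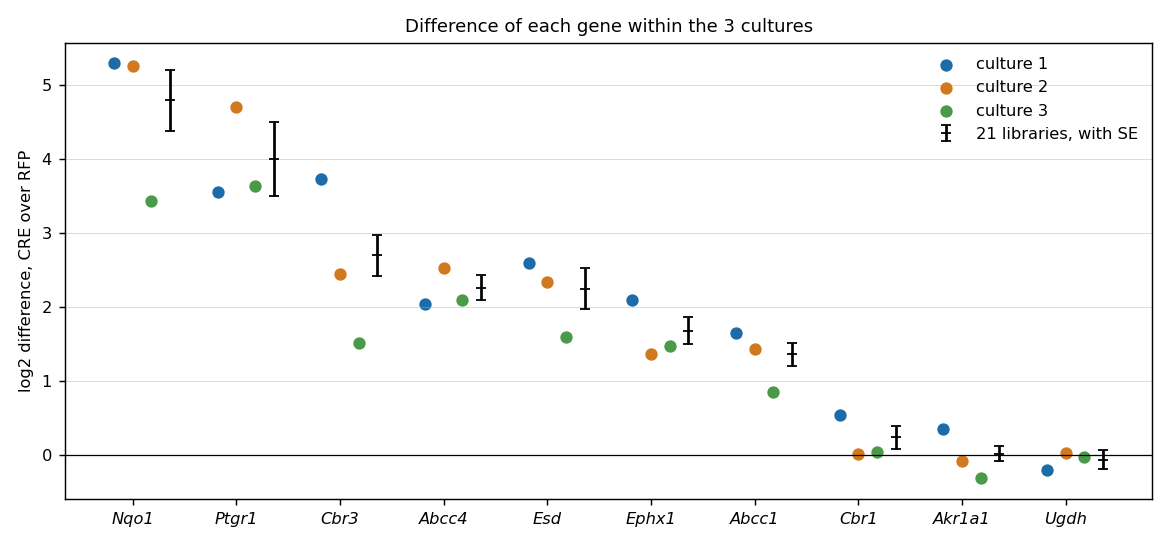
Log2 difference between CRE and RFP libraries of each gene within cultures 1, 2 and 3 (coloured points) and over the 21 libraries with its SE (black). The 7 genes on the left lie above 0 in all cultures, from 0.86 for *Abcc1* in culture 3 to 5.29 for *Nqo1* in culture 1, and *Akr1a1* lies at 0.35 in culture 1 and -0.31 in culture 3.

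The treatment by culture term was past an adjusted p of 0.05 in 1 of 14488 genes, or 0.0069%, and in 0 of the 10 members by edgeR's quasi-likelihood test and by DESeq2, with 2 members at an unadjusted p under 0.05. In the 21 libraries without CRE 1-3 and CRE 3-3 it was past the threshold in 45 genes and in 0 members. In simulated counts this test recovered 4 of 50 changes of log2 1 and 33 of 50 of log2 2. Members that were not called may therefore still differ between cultures. Among the members *Cbr3* had the smallest unadjusted p, 0.00242 (adjusted p = 0.816), followed by *Akr1a1* with 0.0421 (adjusted p = 0.977). When no filter on low counts was applied, *Cbr3* (adjusted p = 0.00165) and *Nqo1* (adjusted p = 0.00557) were past the threshold. *Cbr3* of culture 1 includes the 185 CPM of CRE 1-3, and in the 19 libraries its adjusted p was 0.181. Over all 29 settings tried, the adjusted p ranged from 0.00165 to 0.999 for *Cbr3* and from 0.00557 to 1.0 for *Nqo1*. *Akr1a1* was higher in culture 1, at 154 to 208 CPM in 4 CRE libraries against 121 to 158 in 3 RFP libraries. In culture 3 it was lower, at 118 to 143 CPM against 143 to 170.0 CPM.

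RFP libraries alone were compared between cultures, in which CRE libraries play no part. Of the 12326 genes tested, 0.892% were past an adjusted p of 0.05, and 0 of the 8 members that passed the filter was among them, also by DESeq2 and at an unadjusted p. *Ephx1* came nearest (unadjusted p = 0.0589, adjusted p = 0.514, edgeR), at 28.6 to 54.5 CPM in culture 2 and 24.8 to 33.2 CPM in culture 3. *Nqo1* and *Ptgr1* had too few counts in RFP libraries to pass the filter and were not tested.

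Levels were also compared between the genes, as CPM per 1000 exon bases. In RFP libraries *Akr1a1* was highest (median 38.4), followed by *Cbr1* (13.7), *Ugdh* (6.05), *Cbr3* (5.93), *Ephx1* (4.42), *Esd* (2.21), *Abcc1* (1.01), *Abcc4* (0.946), *Nqo1* (0.93) and *Ptgr1* (0.188). Neighbours in this order were compared within libraries by an exact two-sided sign-flip permutation test on the log2 ratio, with 9 comparisons adjusted together. *Akr1a1* was above *Cbr1*, *Cbr1* above *Ugdh*, *Ephx1* above *Esd* and *Esd* above *Abcc1* in 10 of 10 libraries each (exact p = 0.00195, the smallest that 10 libraries allow, adjusted p = 0.00439). *Nqo1* was above *Ptgr1* in 9 of 10 libraries (exact p = 0.00586, adjusted p = 0.0105). These 5 pairs kept their order in the means of all 3 cultures, over which an exact test cannot go below 0.25. The other 4 neighbouring pairs did not differ beyond their spread. *Ugdh* was above *Cbr3* in 4 of 10 libraries (exact p = 0.854, adjusted p = 0.881) and *Abcc1* above *Abcc4* in 6 of 10 (exact p = 0.881, adjusted p = 0.881). *Cbr3* against *Ephx1* gave 7 of 10 (exact p = 0.113, adjusted p = 0.17), and *Abcc4* against *Nqo1* gave 6 of 10 (exact p = 0.393, adjusted p = 0.505). Without RFP 2-4, *Cbr3* stood before *Ugdh* and *Ugdh* was above *Ephx1* in 8 of 9 libraries (exact p = 0.00781, adjusted p = 0.0117). With the longest transcript in place of all exon bases, *Abcc1* was above *Abcc4* in 8 of 10 libraries (exact p = 0.0195, adjusted p = 0.0293).

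In CRE libraries the order was another. *Cbr3* (median 40.1 CPM per 1000 exon bases) and *Akr1a1* (39.8) stood at the top, *Nqo1* moved from place 9 to place 3 (24.1), and *Ugdh* from place 3 to place 7 (6.01). *Abcc1* was last (2.31), below *Ptgr1* (4.92). These ranks follow from the differences described above and were not tested.

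**Figure D3:**
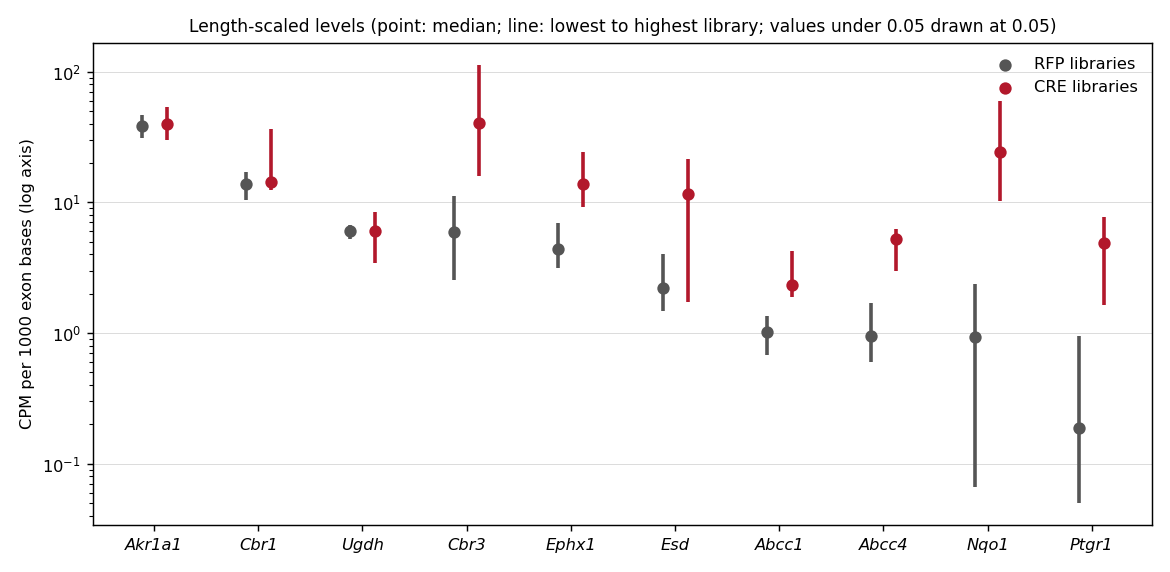
Levels of the 10 genes in CPM per 1000 exon bases on a log axis, with the median (point) and the lowest to highest library (line) of the 10 RFP and 11 CRE libraries. Genes are ordered by their RFP median, from 38.4 for *Akr1a1* to 0.188 for *Ptgr1*, and *Cbr3* and *Nqo1* reach medians of 40.1 and 24.1 in CRE libraries.

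Whether members were high together in the same libraries was described by correlating deviations of log2(CPM + 0.5) from the group means. Over the 21 libraries the 21 pairs of the 7 genes with a log2 difference above 1 had Pearson correlations from -0.14 to 0.52, with a median of 0.23, and in the 19 libraries from -0.07 to 0.64, with a median of 0.34. The pairs with *Nqo1* ran highest for *Ptgr1* (0.52, and 0.44 in the 19 libraries) and *Abcc1* (0.44 and 0.61). *Cbr3* with *Esd* went from -0.14 to 0.64 once CRE 1-3 and RFP 2-4 were left out. With deviations taken from the mean of each culture and group, the median of the 21 pairs was -0.03. The points share libraries, depth and base composition, and no test was made.

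Among 9956 genes with a mean of at least 10 CPM, the 5 with the highest correlation with *Nqo1* were *Twsg1* (0.83), *Csnk1a1* (0.82), *Zfp367* (0.82), *Arf4* (0.81) and *Tbpl1* (0.81), none of them a detoxification gene of the lists used here. In the 19 libraries their correlations were 0.66 to 0.75. Their log2 differences between CRE and RFP libraries ran from -0.29 ± 0.11 (*Csnk1a1*) to 0.42 ± 0.13 (*Twsg1*), against 4.79 for *Nqo1*.

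A list of 97 other detoxification genes, sorted by role, was set beside the members. Of these, 70 were tested, 18 rose and 7 fell in CRE libraries (adjusted p under 0.05, edgeR), that is 25.7% and 10.0% of them against 16.4% and 13.8% of all genes, with a median log2 difference of 0.21. These shares are a description, because the list was chosen with earlier results of these data known. On counts summed per culture 13 rose and 8 fell, and 11 of the 18 were still past the threshold. *Cryz*, *Aldh1a1*, *Aldh3a1*, *Aldh4a1*, *Aldh7a1*, *Aldh16a1* and *Nnmt* were not, with adjusted p of 0.055 to 0.103. Of 6 tested genes listed as quinone reductases beside *Nqo1*, 1 rose, *Cryz*, a quinone oxidoreductase (12.9 ± 4.4 CPM in RFP, 19.2 ± 5.81 in CRE, SD, log2 difference 0.55 ± 0.2 SE, adjusted p = 0.035, and 0.0809 on sums per culture). *Nqo2* was at 10.2 ± 3.34 CPM in RFP and 16.3 ± 7.04 CPM in CRE libraries (SD, log2 difference 0.66 ± 0.29 SE). It was not past the threshold (adjusted p = 0.0873, and 0.0521 on sums per culture, edgeR).

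Among the relatives of the carbonyl reductases, 6 of 13 rose and 1 fell. *Dhrs7*, a short-chain reductase, went from 8.32 ± 1.61 CPM in RFP to 23.8 ± 9.07 CPM in CRE libraries (SD, adjusted p = 9.32e-06, edgeR). *Dcxr*, which reduces xylulose and dicarbonyls, went from 9.98 ± 4.26 to 35.5 ± 19 CPM (adjusted p = 1.15e-05). *Akr1b10*, *Akr1c14*, *Dhrs3* and *Dhrs4* were the others that rose, and *Cbr4*, the mitochondrial member of the carbonyl reductases, fell by 0.88 on the log2 scale. *Cbr1*, *Cbr3* and *Cbr4* thus gave log2 differences of 0.24, 2.70 and -0.88.

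The aldehyde dehydrogenases oxidise the aldehydes that the reductases above would reduce. Of 14 tested, 7 rose and 1 fell. *Aldh2*, the mitochondrial acetaldehyde enzyme, went from 21.4 ± 5.87 to 87.2 ± 48 CPM (SD, log2 difference 2.0 ± 0.25 SE, adjusted p = 7.57e-07, edgeR) and was higher in all 11 CRE libraries than in any RFP library. *Aldh1a1*, a retinal and lipid aldehyde enzyme, went from 16.8 ± 9.19 to 64.7 ± 39.8 CPM (adjusted p = 0.000285, and 0.0648 on sums per culture). *Aldh1a7*, *Aldh3a1*, *Aldh4a1*, *Aldh7a1* and *Aldh16a1* also rose, and *Aldh5a1*, which clears succinic semialdehyde from GABA breakdown, fell by 0.61 on the log2 scale. On sums per culture *Aldh1a7* was still past the threshold (adjusted p = 0.0189, edgeR). *Aldh3a1*, *Aldh4a1*, *Aldh7a1* and *Aldh16a1* were not (adjusted p of 0.055 to 0.103).

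The relatives of *Ptgr1* held 2 of 6 genes that rose and 1 that fell. *Ptgr3* went from 29.7 ± 6.77 to 79.3 ± 12.9 CPM (SD, adjusted p = 1.63e-08, edgeR), with no overlap between the groups, and *Vat1* from 140.0 ± 26.5 to 321 ± 135 CPM (adjusted p = 2.72e-05). *Vat1l* fell by 1.15 on the log2 scale. *Ptgr2*, another prostaglandin reductase, was at 5.25 ± 1.85 CPM in RFP and 4.89 ± 1.85 CPM in CRE libraries (SD).

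No epoxide hydrolase of the 3 tested beside *Ephx1* rose, and *Ephx4* fell (log2 difference -0.68 ± 0.18 SE, adjusted p = 0.00486, edgeR). Of 7 genes of formaldehyde and glyoxal clearance beside *Esd*, 0 were past the threshold over libraries by edgeR or DESeq2. At an unadjusted p under 0.05 there was 1, with a lower level. On sums per culture *Haghl* of this role was lower (log2 difference -0.44, adjusted p = 0.0211, edgeR). *Adh5*, the enzyme that makes the substrate of *Esd*, was at 55.9 ± 5.53 CPM in RFP and 61 ± 10.2 CPM in CRE libraries (SD). Beside *Ugdh*, 0 of 4 tested genes rose and *Ugt8a*, which makes galactocerebroside of myelin, fell from 15.4 ± 5.92 to 2.64 ± 2.98 CPM (SD, adjusted p = 0.000196, edgeR). Among 9 sulfation and methylation genes *Nnmt* rose (adjusted p = 0.0311, and 0.0576 on sums per culture) and *Papss1* fell (adjusted p = 0.0177). Beside *Abcc1* and *Abcc4*, the transporter *Abcg4*, a sterol exporter, fell (log2 difference -0.41 ± 0.11 SE, adjusted p = 0.00591, edgeR). *Abcc5*, which exports nucleotide analogues, was at 108 ± 17.7 CPM in RFP and 122 ± 30.4 CPM in CRE libraries (SD), and *Abcb1b*, a drug pump, at 3.44 ± 1.35 and 4.39 ± 2.97 CPM, both not past the threshold.

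**Figure D4:**
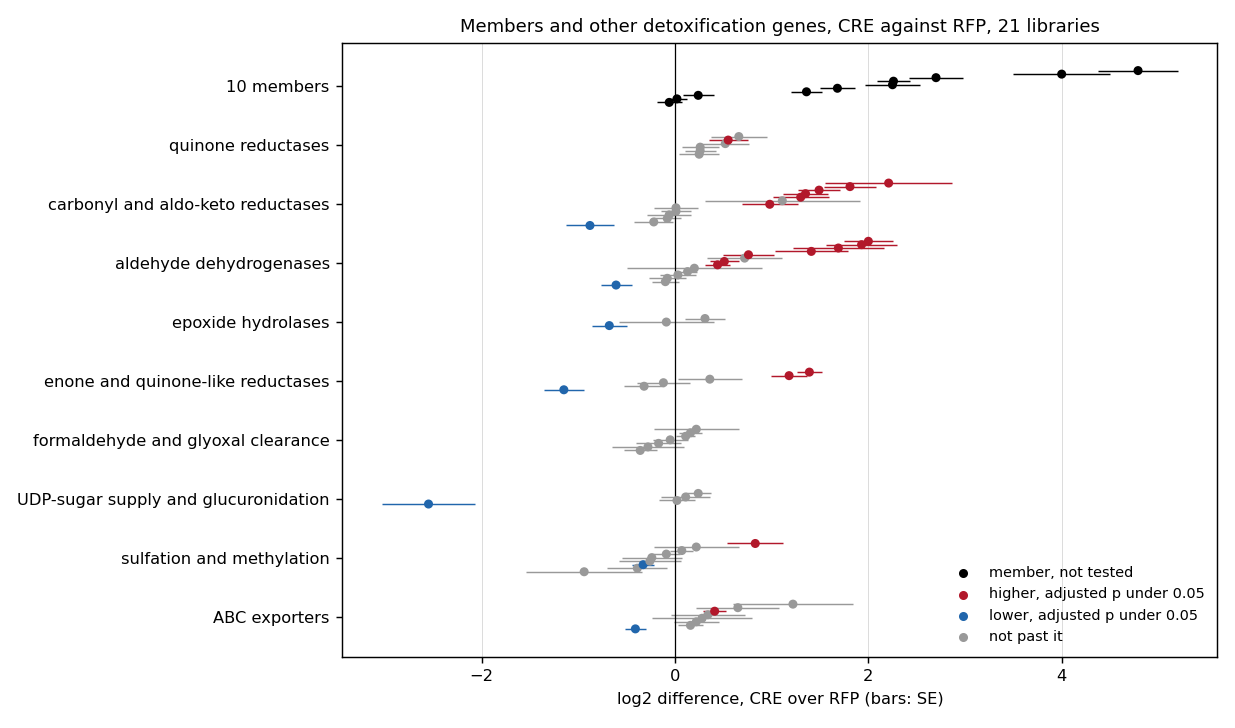
Log2 differences between CRE and RFP libraries, with SE bars, for the 10 members and for the 70 tested genes of the other detoxification list by role. Black points are the members, drawn without a test, and among the others red points are higher and blue points lower at an adjusted p under 0.05. The members, which were chosen on this contrast, reach 4.79, and the highest red point of the other roles lies at 2.21. Listed genes too scarce to be tested are not drawn.

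The list of the aryl hydrocarbon receptor pathway, also chosen with earlier results of these data known, was set beside *Nqo1*. Its shares are likewise a description. Of 7 genes tested 4 rose (57.1%, against 16.4% of all genes) and 0 fell by edgeR, and 5 rose and 0 fell by DESeq2. The median log2 difference was 0.67, against 0.02 over all genes. *Cyp1a1*, the classical target of the receptor, was at 0.726 ± 1.12 CPM in RFP and 5.82 ± 2.62 CPM in CRE libraries (SD, log2 difference 2.96 ± 0.58 SE, adjusted p = 0.000322, edgeR). *Cyp1b1* went from 7.35 ± 3.95 to 17.1 ± 8.35 CPM (adjusted p = 0.00347), *Aldh3a1* from 0.473 ± 0.322 to 1.59 ± 0.939 CPM (adjusted p = 0.00778), and the receptor gene *Ahr* from 16.5 ± 4.03 to 26.5 ± 10.4 CPM (adjusted p = 0.0255). The other 3 were not past the threshold. *Tiparp*, a target of the receptor, was at 40.7 ± 11.4 and 64.1 ± 22.9 CPM (log2 difference 0.64 ± 0.27 SE, adjusted p = 0.074), *Arnt*, the partner of the receptor, at 22.1 ± 3.54 and 23.2 ± 6.81 CPM (0.05 ± 0.16), and *Ahrr*, its repressor, at 1.49 ± 1.23 and 1.05 ± 1.28 CPM (-0.49 ± 0.76). On counts summed per culture *Tiparp* was past it (adjusted p = 0.00487) and *Aldh3a1* was not (adjusted p = 0.055). With all 23 libraries 2 of the genes were past the threshold, and under the alternatives the number ranged from 2 to 5. *Aldh3a1* is also in the list of aldehyde dehydrogenases.

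The surroundings of the members were also compared. Of 31 neighbours tested within 100000 bases of a member, 4 were higher (12.9%) and 7 lower (22.6%) in CRE libraries, against 16.4% and 13.8% of all genes. *Dop1b* and *Setd4*, which lie beside the *Cbr* genes, were not past the threshold (log2 differences -0.27 ± 0.12 and -0.21 ± 0.27 SE). *Prdx1*, 15319 bases from *Akr1a1*, was at 77.5 CPM in RFP and 292 CPM in CRE libraries (log2 difference 1.89 ± 0.29 SE, adjusted p = 1.99e-05, edgeR), beside the 0.02 of *Akr1a1*. These neighbours were named after their values were seen.

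The cultures held other cells than neurons, and the marker genes of several cell types moved between the groups. In CRE libraries 5 of 8 neuronal markers were lower and 1 higher, with summed levels of 2540 to 5800 CPM against 5730 to 6980 in RFP libraries. For astrocytes 4 of 8 were lower and 1 higher (1560 to 5130 against 3610 to 7840 CPM), for the oligodendrocyte lineage 5 of 8 lower (425 to 1910 against 647 to 1870 CPM), and for dividing cells 5 of 6 lower (5.45 to 175 against 162 to 276 CPM). Mesenchymal markers had 1 of 6 higher (13.8 to 377 against 14.9 to 136 CPM) and microglial markers 1 of 3 tested higher, *Tmem119* (5.72 to 12.5 against 2.77 to 11.7 CPM). Of 6 endothelial markers only *Kdr* was tested, and it was lower (summed level of the list 1.09 to 10.1 against 2.17 to 9.57 CPM). *Cx3cr1*, *C1qa* and *C1qb* of microglia and *Cldn5* and *Tek* of endothelial cells had a median of 0. In these bulk samples fewer cells of a type and less RNA per cell cannot be told apart, and the part of these shifts in the levels of the 10 genes was not tested.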

How the data were processed

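Per the labels and the study's methods, poly(A) RNA libraries were made with a stranded Illumina kit, and the authors processed the reads with bcl2fastq 2.20.0.422, STAR 2.7.8a and featureCounts 1.5.0-p1 on GRCm39. The deposited files hold raw counts per Ensembl gene, 1 file for each of 23 libraries, with 56941 genes. The strand setting and the handling of multiply mapped reads are not given in the sources used here. GENCODE M39, of the same build, named 56323 of the genes, which held 99.95% of all counts.

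Counts were compared over 21 libraries with edgeR 4.0.16 in R 4.3.3 (filterByExpr, TMM factors, robust quasi-likelihood fit, Benjamini-Hochberg adjustment over all 14488 genes tested, threshold 0.05), and DESeq2 1.42.0 was an alternative. The test was checked on simulated counts with 50 genes changed at each size. Of changes of log2 1 and log2 2, the comparison of CRE and RFP libraries recovered 34 and 48. The treatment by culture term recovered 4 and 33, and the comparison of cultures among RFP libraries 6 and 41. CPM used TMM factors over 23 libraries. The 2 libraries of any pair within a group differed by at least 10.9 times the sampling noise (chi-square per degree of freedom, 121 pairs), so none was taken for a copy of another, which does not make them independent samples. The labels do not say whether the libraries came from separate animals, and the study's legends count 3 animals or biological replicates. The p-values therefore measure the spread between libraries, which may be technical, and are too small if the 3 cultures are the replicates. Counts summed per culture and group were an alternative. Totals of 7430401 to 17112815 counts limit the precision of *Nqo1* and *Ptgr1* in RFP libraries. CRE and RFP samples were grouped by their labels.

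The 10 genes, the gene lists and the rule for named genes were chosen with earlier results of these data known. The rule names all 10 members, *Nedd8*, the 2 genes with the smallest adjusted p in each role of the other detoxification list, every gene past the threshold in the aryl hydrocarbon receptor list and the 5 genes most like *Nqo1*. A gene that the rule names is not reported here. Other genes were named after their values were seen. The within-culture fits were added after seeing the data. Python 3.11.15, pandas 2.3.3 and scipy 1.17.1 gave the other values and matplotlib 3.10.9 the figures.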

Additional observations from a re-analysis of the deposited data

Results flagged for a closer look

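*Cbr1* in CRE 1-3 (138 CPM) stood far from the other 3 CRE libraries of culture 1, which held 55 to 61.5 CPM. *Esd* in RFP 2-1 (20.7 CPM) stood far from the other 3 RFP libraries of culture 2, at 9.54 to 11 CPM. These were the only such libraries in 44 groups of 4 to 10 libraries examined for the 10 genes and *Nedd8*, and chance gives about 1 in 20.

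*Akr1a1* had opposite differences in cultures 1 and 3, with log2 values of 0.35 and -0.31. Every CRE library of culture 1 was above the mean of its RFP libraries and every CRE library of culture 3 was below the mean of its own. The difference between this pair of cultures was not tested by itself, and the treatment by culture term over the 3 cultures had an adjusted p of 0.977 (edgeR).

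CRE 3-3, which was not among the libraries compared and had 1546796 counts, was above every RFP library for *Nqo1* (30.0 CPM), *Cbr1* (80.5 CPM), *Cbr3* (157 CPM), *Ptgr1* (2.73 CPM), *Ephx1* (61.4 CPM) and *Abcc4* (38.2 CPM). For *Cbr1* it was the second CRE library above all RFP libraries, after CRE 1-3, and both followed GC content.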

How the results depend on the processing

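None of the 10 log2 differences moved by more than the SD between libraries under any alternative of the comparison between CRE and RFP libraries. These genes were chosen on that comparison. The SD between libraries is a wide measure for a difference between groups. *Nqo1* ran from 4.47 to 5.27 around 4.79 ± 0.41 (SE), and *Cbr3* from 2.11 to 3.07 around 2.70 ± 0.28 (SE). Both of these ranges went beyond 1 SE. With culture number as a replicate block, 2308 genes were higher and 1959 lower, against 2374 and 1996 without the block, and with library number as the block 2225 and 2010. The same-numbered cultures correlated at 0.04, 0.0 and 0.15 across genes, so the numbers were not taken to pair the libraries, and the block moved no count of the gene lists by over 1.5 times. Without a filter on low counts 4367 genes were higher. Leaving out 1 culture gave 1311 to 1907 higher and 803 to 1823 lower genes, 12 to 14 higher and 3 to 9 lower genes of the other detoxification list, and 2 to 4 of the receptor list, which also had 2 with all 23 libraries. The lowest counts of genes were those without culture 2.

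The treatment by culture term called 36 genes in the 19 libraries, 45 in the 21 libraries named in the study's methods (without CRE 1-3 and CRE 3-3), 17 by DESeq2, 0 with all 23 libraries and 88 without a filter, where 2 members were called (*Nqo1*, adjusted p = 0.00557, and *Cbr3*, adjusted p = 0.00165). With 1 library left out it called 0 to 20 genes, 20 without CRE 1-3, and 0 members. Culture differences among RFP libraries numbered 301 by DESeq2, 200 with the GC trend removed, 246 with 11 libraries and 465 without a filter. With 1 library left out they numbered 9 (without RFP 3-1) to 232 (without RFP 2-4), and 0 members were called under any of these. The median correlation among the 7 higher genes was -0.03 with deviations from culture means. The cause of these changes was not tested. The low counts of *Nqo1* and *Ptgr1* in RFP libraries limit their folds.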
